A study of Mus musculus with 6 samples.

Results

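Fatty acid and phospholipid synthesis is described here by 39 genes that carry carbon from cytosolic acetyl-CoA to fatty acids, and from fatty acids to triglyceride and phospholipid. The members are the listed enzymes and regulators measured by a probe set that names exactly 1 gene. Where a gene has several such probe sets, the brightest on average was used. Of the 39 genes 38 were measured, among 18193 genes in all, and Acsl1 was not analysed here. No filter on low values was applied. Of the 38, 32 were bright in at least 1 group, meaning a group mean of at least 6.88 log2, the median of all genes, and 6 were dim in both.

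The lungs came from mouse embryos at stage E18.5, shortly before birth. Total lung RNA was hybridised to Affymetrix Mouse430_2 arrays, of which 3 are labelled wild type (WT 1, WT 2 and WT 3) and 3 GATA6 KO (KO 1, KO 2 and KO 3). GATA6 is a zinc finger transcription factor, and the series asks which genes it regulates in the lung. The strain, the knockout allele and the cells in which GATA6 was removed are not given in the sources used here. Nor is it given whether the arrays stand for separate embryos, so the spread between arrays may be in part technical.

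The fetal lung makes large amounts of lipid before birth, because surfactant, the film that keeps the air spaces open, is mostly phosphatidylcholine with some phosphatidylglycerol. ATP citrate lyase and acetyl-CoA carboxylase supply the building blocks, fatty acid synthase joins them into palmitate, and elongases and desaturases lengthen the chain and add double bonds. The acyl chains are activated to acyl-CoA, placed on glycerol phosphate, and given a head group through CDP-choline, CDP-ethanolamine or CDP-diacylglycerol. SREBP-1, the protein of Srebf1, is a transcription factor that switches on many of these genes in liver and other tissues.

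All values below are log2 of the deposited intensity plus 16, and every difference is KO minus WT on that scale. A fold on this scale understates the change of dim genes. Each difference was tested in limma across all 18193 genes with Benjamini-Hochberg adjustment. The targeted gene does not check the labels: Gata6 read 11.12, 10.26 and 10.42 in the arrays labelled WT and 11.58, 11.39 and 11.19 in those labelled KO, with adjusted p = 0.964 in limma. Whether its probe set lies in the deleted part is not known here, so every direction is one between labels. The headers place WT 1 and WT 2 on fluidics station 1 and the other 4 arrays on station 2, so a value within station 2 takes WT 3 as its only WT array. Scan order follows the labels and cannot be told apart from them. WT 1, KO 2 and KO 3 stood apart from the rest: their probe sets without a gene name were brighter, with a median at -0.87, -1.19 and -0.66 log2 relative to that of named ones, each over probe sets above the overall median. In WT 2, WT 3 and KO 1 that value lay between -1.98 and -1.88.

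The members that stood apart most clearly were the fatty acid desaturases, although no member passed the test over all genes. In 6 members all 3 KO arrays lay below all 3 WT arrays: Scd1, Scd2, Fads1, Fads2, Acaca and Lpin1. All 6 are bright, and this pattern held for 3.81% of all genes and for 6.27% of bright genes. In 2 members all KO arrays lay above all WT arrays, Me1 and the dim Mlxipl, against 5.89% of all genes and 5.28% of bright genes. The order of Mlxipl rests on intensities of 3.65 to 3.73, at the floor of the arrays. All 4 desaturases of the member list are among the 6, and no other step of the pathway had more than 1 such member. Fads3, a desaturase-like gene outside the member list, differed by -0.27 with groups that overlap. The count below was 12 without KO 1 or without WT 3 and 10 without WT 1. The count above was 4 without KO 2 and 5 without WT 1. Fewer arrays separate more easily, and the share of all genes without 1 array is not given here, so these counts have no background.

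**Figure D1:**
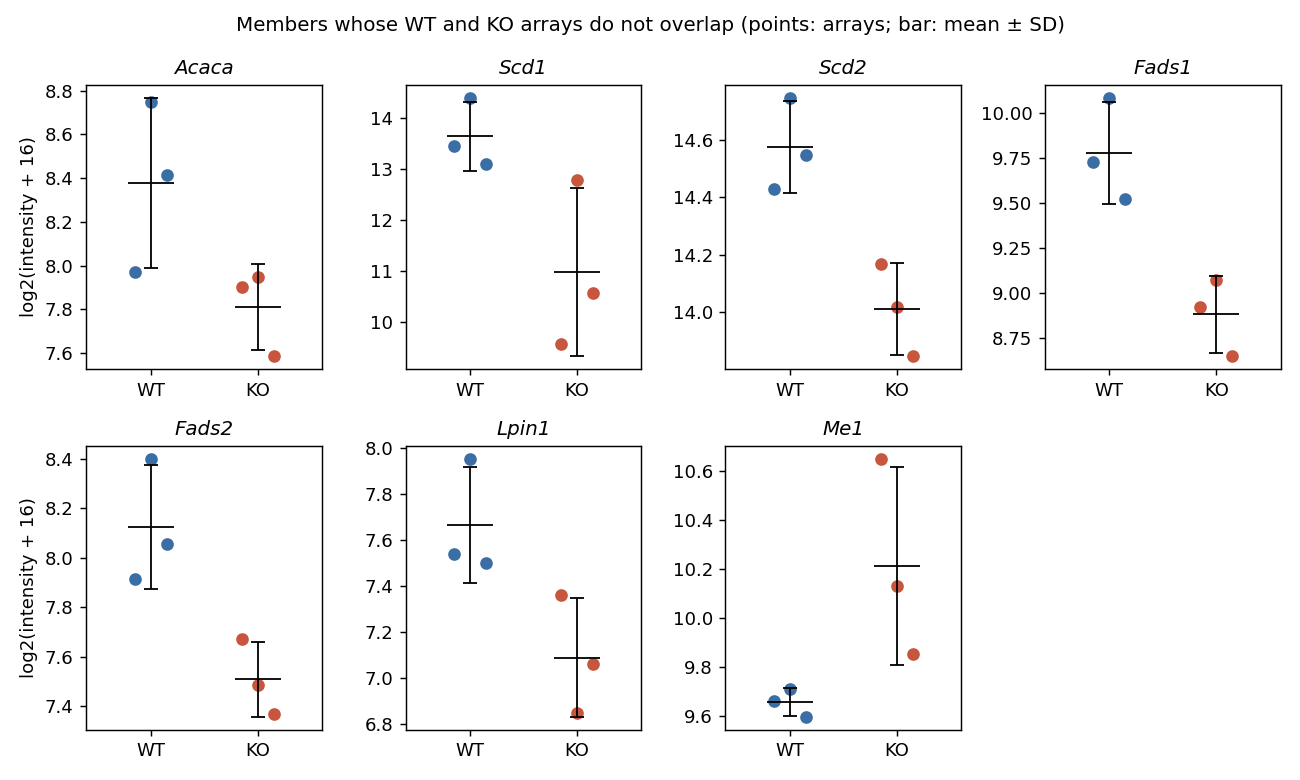
Level of the 7 bright members whose arrays do not overlap, as log2(intensity + 16), in the 3 arrays labelled WT (blue) and the 3 labelled KO (red); bars are the mean ± SD and each panel has its own axis. Scd1 spreads most, from 9.57 to 12.79 in the KO arrays, and Me1 is the single panel with the KO arrays on top.

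No member passed the test over all genes (adjusted p = 0.832 or higher in limma), and 1 of the 18193 genes did, 0.0055%. At an unadjusted p under 0.05, 5 members were lower and 1 higher in limma, against 471 lower and 363 higher among all genes. Without a threshold, 28 of the 38 members read lower in the KO arrays and 10 higher, where 41.6% of all genes read lower. The split was 22 and 16 within station 2, and 24 and 14 after centring each array on its median. The share of all genes reading lower under these settings is not given here, so these splits have no background beside them. The median difference of the members was -0.12, and that of all genes was 0.00. Among bright genes 25 of 32 members (78.1%) read lower, against 55.0% of all 9310 bright genes, with medians of -0.18 and -0.03. The members and lists were chosen with earlier results of these data known, so these counts are a description.

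RefSeq windows of GRCm38.p6 from 250 bases before to 50 bases after the start were found for 32 of the 38 members. Of the members whose arrays do not overlap, they are shown for Acaca, Fads2, Lpin1 and Me1. Scd1, Scd2 and Fads1 had no window, so their promoters were not searched, and the windows of the dim Mlxipl are not printed. Windows are also shown for Fasn as the central enzyme, and for Pcyt1a, which holds a sterol element. Capitals mark any of 5 motifs on either strand: the sterol element TCACNCCAC, the NF-Y box CCAAT, the E-box CACGTG, the Sp1 box GGGCGG and the GATA motif AGATAA. A gene can have several start sites, and 1 window is printed for each.
Acaca (chr11:84195188-84195487, plus strand): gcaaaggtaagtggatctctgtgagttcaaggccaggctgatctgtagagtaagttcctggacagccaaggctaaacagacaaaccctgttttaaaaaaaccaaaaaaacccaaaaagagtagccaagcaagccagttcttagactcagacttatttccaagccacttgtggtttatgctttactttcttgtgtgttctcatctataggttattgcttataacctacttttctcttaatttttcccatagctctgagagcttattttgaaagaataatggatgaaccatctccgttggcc
Fads2 (chr19:10101454-10101753, minus strand): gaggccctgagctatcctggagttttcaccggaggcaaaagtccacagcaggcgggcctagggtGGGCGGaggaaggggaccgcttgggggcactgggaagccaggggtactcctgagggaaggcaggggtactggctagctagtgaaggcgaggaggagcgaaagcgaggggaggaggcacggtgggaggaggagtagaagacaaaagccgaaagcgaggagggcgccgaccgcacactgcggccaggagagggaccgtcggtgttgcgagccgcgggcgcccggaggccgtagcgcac
Lpin1 (chr12:16610917-16611216, minus strand): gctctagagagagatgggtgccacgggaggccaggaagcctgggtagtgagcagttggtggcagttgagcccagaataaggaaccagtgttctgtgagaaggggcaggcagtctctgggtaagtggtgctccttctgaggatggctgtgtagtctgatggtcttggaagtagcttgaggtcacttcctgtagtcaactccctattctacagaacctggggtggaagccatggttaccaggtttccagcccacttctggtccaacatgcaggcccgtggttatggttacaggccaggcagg
Me1 (chr9:86695865-86696164, minus strand): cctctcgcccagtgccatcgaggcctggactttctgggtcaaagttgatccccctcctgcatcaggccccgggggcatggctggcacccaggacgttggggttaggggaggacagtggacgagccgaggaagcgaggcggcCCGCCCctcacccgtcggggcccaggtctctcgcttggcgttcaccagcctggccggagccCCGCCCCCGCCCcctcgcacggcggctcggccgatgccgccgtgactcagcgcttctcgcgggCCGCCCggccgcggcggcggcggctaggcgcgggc
Fasn (chr11:120824498-120824797, minus strand): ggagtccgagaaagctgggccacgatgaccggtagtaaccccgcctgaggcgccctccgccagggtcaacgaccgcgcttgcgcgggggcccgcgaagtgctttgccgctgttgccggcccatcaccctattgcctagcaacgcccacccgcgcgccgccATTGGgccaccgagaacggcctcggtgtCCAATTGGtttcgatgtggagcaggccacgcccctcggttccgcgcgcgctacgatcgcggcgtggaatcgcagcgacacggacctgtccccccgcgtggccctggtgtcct
Pcyt1a (chr16:32430671-32430970, plus strand): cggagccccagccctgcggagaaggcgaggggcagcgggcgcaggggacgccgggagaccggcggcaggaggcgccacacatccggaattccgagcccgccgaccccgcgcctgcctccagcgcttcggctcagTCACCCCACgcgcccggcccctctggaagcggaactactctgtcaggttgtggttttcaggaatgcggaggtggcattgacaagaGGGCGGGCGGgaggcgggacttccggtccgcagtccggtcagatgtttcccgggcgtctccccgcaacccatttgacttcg

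The Fasn window held 3 NF-Y boxes between 90 and 59 bases before the start, of which 1 pair overlaps on opposite strands. The Me1 window printed held 4 Sp1 boxes, and the Fads2 window 1, 186 bases before the start. In the Acaca and Lpin1 windows none of the 5 motifs was found. The sterol element was found in 3 of the 48 member windows and in 1.24% of all 32851 windows. Of the 3, 1 belongs to Mlxipl and the others are overlapping Pcyt1a windows that hold the same site. The NF-Y box was found in 26 of the 48 and in 37.4% of all windows, and the Sp1 box in 28 of 48 and in 35.7%. The GATA motif stood in 4 of the 48 member windows, those of Elovl1, Gpam, Pcyt1b and Pemt, and in 11.2% of all windows. The E-box stood in 4 of 48 and in 7.15%. These matches describe the letters of each window.

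Scd1, a stearoyl-CoA desaturase that makes oleate and palmitoleate, had the widest difference. Its intensity was 11184, 21563 and 8714 in WT 1 to 3 and 746, 7045 and 1514 in KO 1 to 3. KO 2 came close to the lowest WT array, and KO 1 lay furthest below. On the log2 scale the groups read 13.65 ± 0.67 and 10.98 ± 1.64 (SD, n = 3 each), a difference of -2.67 (SE 0.85), or 6.35-fold lower, with adjusted p = 0.964 in limma. The difference was -1.96 without KO 1, -3.57 without KO 2 and -2.11 within station 2. A second Scd1 probe set read 8.95, 10.36 and 8.84 in the WT arrays and 5.82, 7.92 and 5.78 in the KO arrays, a difference of -2.88 with no overlap.

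Scd2 encodes a second stearoyl-CoA desaturase, prominent in embryonic and brain tissue. It read 14.43, 14.75 and 14.55 in the WT arrays and 14.17, 14.02 and 13.85 in the KO arrays. The arrays of a group lay close together, with SDs of 0.16 in each, and the difference was -0.56 (SE 0.15), 1.48-fold lower, with adjusted p = 0.927 in limma. Its other bright probe sets gave -1.02 and -1.21, and in the first of them the groups did not overlap either. Scd1 and Scd2 lie close together in the genome, with 1 protein-coding gene between them in the RefSeq table.

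Fads1 and Fads2 encode the delta-5 and delta-6 desaturases, which make long polyunsaturated fatty acids from dietary precursors, and are direct neighbours in the genome. Fads1 read 9.73, 10.09 and 9.52 in the WT arrays and 8.92, 9.07 and 8.65 in the KO arrays. Its difference of -0.90 (SE 0.19), 1.86-fold lower, had the smallest p of all members, and it did not pass (adjusted p = 0.832 in limma). It was -0.64 within station 2, and -0.45 as the mean with its other probe set, which lies at the floor in every array. Fads2 read 7.91, 8.40 and 8.05 in the WT arrays and 7.67, 7.49 and 7.37 in the KO arrays, a difference of -0.61 (SE 0.19). A second bright Fads2 probe set differed by -0.41 with groups that overlap.

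The steps that lead to palmitate were less uniform. Acaca, the acetyl-CoA carboxylase that commits carbon to fatty acids, read 7.97, 8.75 and 8.42 in the WT arrays and 7.90, 7.95 and 7.59 in the KO arrays. WT 1 lies just above KO 2, so the separation is narrow (difference -0.57, SE 0.24). Acacb, the carboxylase form of oxidative tissues, lay at the floor with intensities of 4.77 to 6.93. Fasn, fatty acid synthase itself, read 11.52, 12.01 and 11.57 in the WT arrays and 11.87, 11.60 and 10.64 in the KO arrays. KO 3 alone lay below the WT range, the difference was -0.33 (SE 0.34), and without KO 3 it was 0.04.

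Of the genes that feed the pathway, Acss2, which makes acetyl-CoA from acetate, differed by -0.50 (SE 0.20). It read 8.76, 8.90 and 8.99 in the WT arrays and 8.78, 8.29 and 8.08 in the KO arrays, so that KO 1 fell within the WT range. Slc25a1, the carrier that exports citrate from mitochondria, differed by -0.34 (SE 0.19), by -0.14 within station 2 and by -0.19 without KO 3. Acly, which splits that citrate, differed by -0.16 (SE 0.18), and its other bright probe sets by -0.41 and -0.46. Without KO 3 the Acly difference was -0.01. Me1, the malic enzyme that supplies NADPH, went the other way. It read 9.66, 9.71 and 9.60 in the WT arrays and 10.65, 10.13 and 9.85 in the KO arrays, a difference of 0.56 (SE 0.21), 1.47-fold higher, with adjusted p = 0.964 in limma. A second Me1 probe set read 0.84 higher, again with no overlap, and without KO 1 the difference was 0.34.

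**Figure D2:**
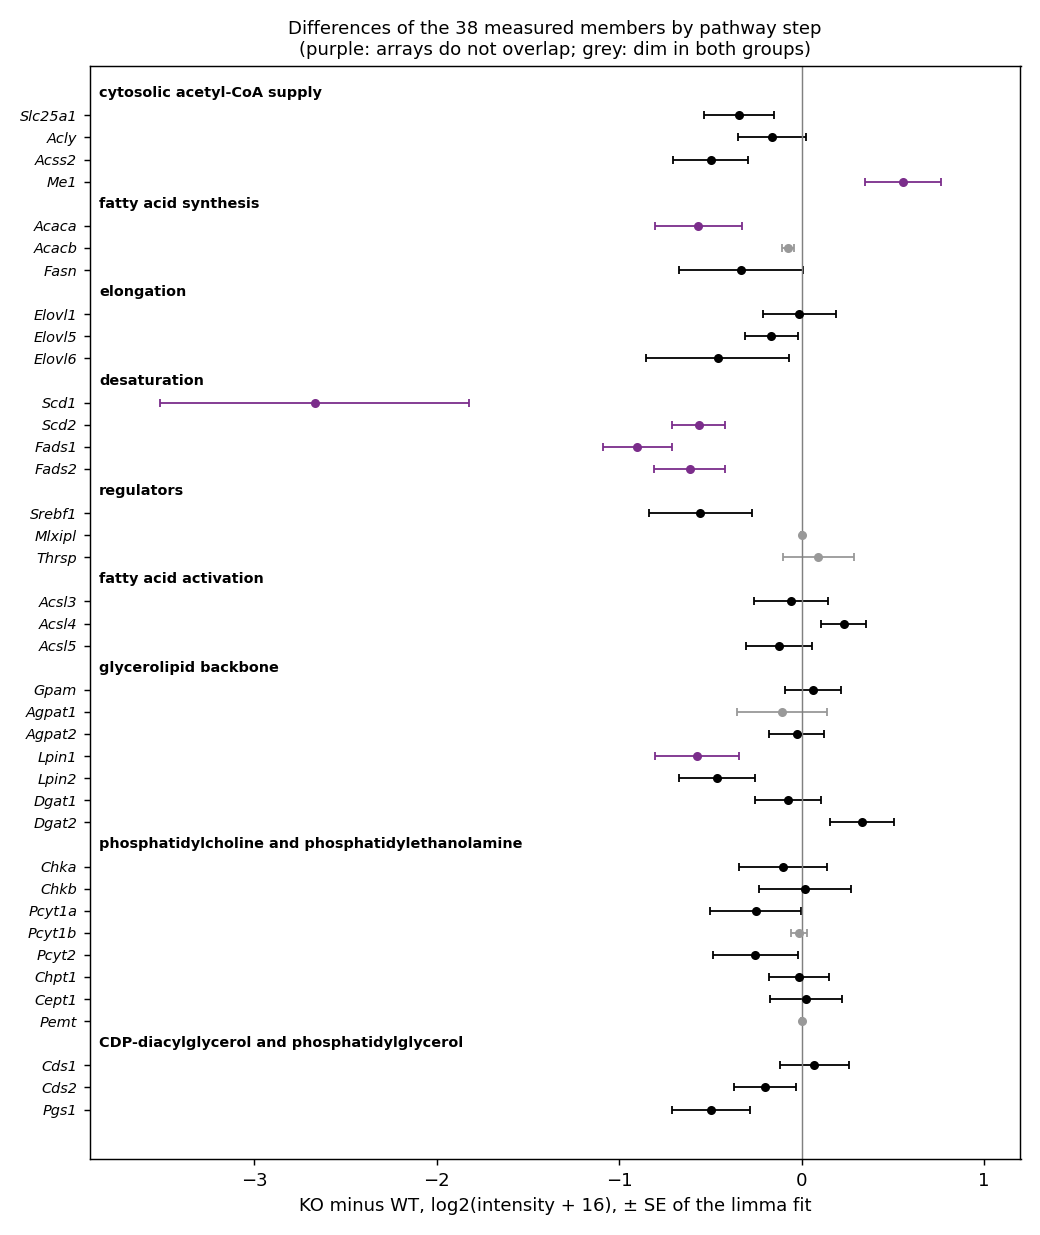
Difference between KO and WT on the log2(intensity + 16) scale for the 38 measured members, in pathway order, with the standard error of the limma fit. Purple marks bright members whose arrays do not overlap and grey those dim in both groups; the 4 desaturases all lie left of 0, while the phosphatidylcholine genes lie near it.

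The elongases showed small differences with overlapping groups. Elovl1, which extends saturated chains, and Elovl5, which extends polyunsaturated ones, differed by -0.01 (SE 0.20) and -0.17 (SE 0.14). Elovl6, which takes palmitate to stearate, read 6.53, 7.21 and 7.36 in the WT arrays and 7.27, 6.24 and 6.20 in the KO arrays (difference -0.46, SE 0.39). The low Elovl6 arrays were WT 1, KO 2 and KO 3, the same arrays that carry more signal on unnamed probe sets. With that signal as a covariate the Elovl6 difference was -0.22, and within station 2 it was -0.79.

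Among the regulators, Srebf1 read 9.83, 10.67 and 10.03 in the WT arrays and 9.92, 9.74 and 9.21 in the KO arrays. WT 2 was highest and KO 3 lowest, KO 1 fell between the WT arrays, and the difference was -0.55 (SE 0.28). It was -0.31 without WT 2 and -0.35 without KO 3. Mlxipl, the carbohydrate-responsive factor ChREBP, was at the floor in every array. Thrsp, a small protein linked to lipogenesis in liver and fat, was dim in both groups, at 5.51 ± 0.19 and 5.60 ± 0.34 (SD, n = 3 each).

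The acyl-CoA synthetases, which activate fatty acids, showed small differences. Acsl3 differed by -0.06 (SE 0.20) and Acsl5 by -0.12 (SE 0.18). Acsl4, which prefers arachidonate, differed by 0.23 (SE 0.12). It read 11.39, 11.49 and 11.14 in the WT arrays and 11.70, 11.49 and 11.52 in the KO arrays, with KO 2 level with WT 2.

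On the glycerol backbone, the lipins, which turn phosphatidate into diacylglycerol, gave the lowest values. Lpin1 read 7.54, 7.95 and 7.50 in the WT arrays and 7.36, 6.85 and 7.06 in the KO arrays, a difference of -0.57 (SE 0.23), and its other probe set read -0.82, also without overlap. Lpin2 differed by -0.46 (SE 0.21) on its brightest probe set, where KO 2 overlaps WT 3, and 2 dimmer Lpin2 probe sets showed no overlap, at -0.49 and -0.32. The Lpin2 difference was -0.17 within station 2. Gpam, the mitochondrial acyltransferase that starts the backbone, differed by 0.06 (SE 0.15), and Agpat2, which adds the second chain, by -0.03 (SE 0.15). Agpat1 was dim. The triglyceride synthases Dgat1 and Dgat2 differed by -0.07 (SE 0.18) and 0.33 (SE 0.17).

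The genes that put the head group on phosphatidylcholine, the main lipid of surfactant, showed small differences on the probe sets used. Pcyt1a, the rate-limiting enzyme of the CDP-choline route, read 9.47, 9.83 and 9.96 in the WT arrays and 9.99, 9.32 and 9.19 in the KO arrays (difference -0.25, SE 0.25). Its other bright probe sets differed by -0.474 (SE 0.409) and -0.225 (SE 0.543), with groups that overlap. Chka and Chkb, the choline kinases, differed by -0.10 (SE 0.24) and 0.02 (SE 0.25). The other bright Chka probe sets differed by 0.714 (SE 0.664) and 0.534 (SE 0.655). Chpt1 and Cept1, which join the head group to diacylglycerol, differed by -0.01 (SE 0.16) and 0.02 (SE 0.20). Pcyt2, of the ethanolamine branch, differed by -0.25 (SE 0.23). With an SE near 0.2, differences of this size were not detectable with 3 arrays a group, which does not show that the levels are alike. Pemt, the liver methyltransferase, and Pcyt1b lay at the floor.

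In several of these genes WT 1, KO 2 and KO 3 lay apart from the other 3 arrays. Chkb read 8.86, 8.35 and 8.60 in WT 1, KO 2 and KO 3 and 8.14, 8.09 and 8.20 in WT 2, WT 3 and KO 1. Cept1 read 11.48, 11.27 and 11.48 in the first trio and 11.05, 11.05 and 10.89 in the second, while Pcyt1a was lower in the first trio, as given above. These are the arrays that differ in unnamed signal. With that signal as a covariate the difference was -0.13 for Chkb, -0.11 for Cept1 and -0.10 for Pcyt1a. For Chkb and Cept1 the sign turned and the value lay further from 0 than without the covariate. For Pcyt1a it lay nearer to 0, as it did for Fasn (-0.15), Acly (-0.07) and Cds2 (-0.12). For the desaturases the covariate left -2.78 for Scd1, -0.50 for Scd2, -0.86 for Fads1 and -0.53 for Fads2.

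In the branch to phosphatidylglycerol, the second phospholipid of surfactant, Pgs1, the mitochondrial phosphatidylglycerophosphate synthase, differed by -0.50 (SE 0.22). It read 9.02, 9.15 and 8.82 in the WT arrays and 8.54, 8.86 and 8.12 in the KO arrays, and KO 2 fell within the WT range. The difference was -0.30 without KO 3 and -0.32 within station 2. One of its other probe sets showed no overlap, at -0.58. The Pgs1 probe set without a shared-sequence suffix lay at the floor and differed by -0.02. The CDP-diacylglycerol synthases Cds1 and Cds2 differed by 0.07 (SE 0.19) and -0.20 (SE 0.17). All 5 bright Cds2 probe sets read lower, down to -0.78.

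**Figure D3:**
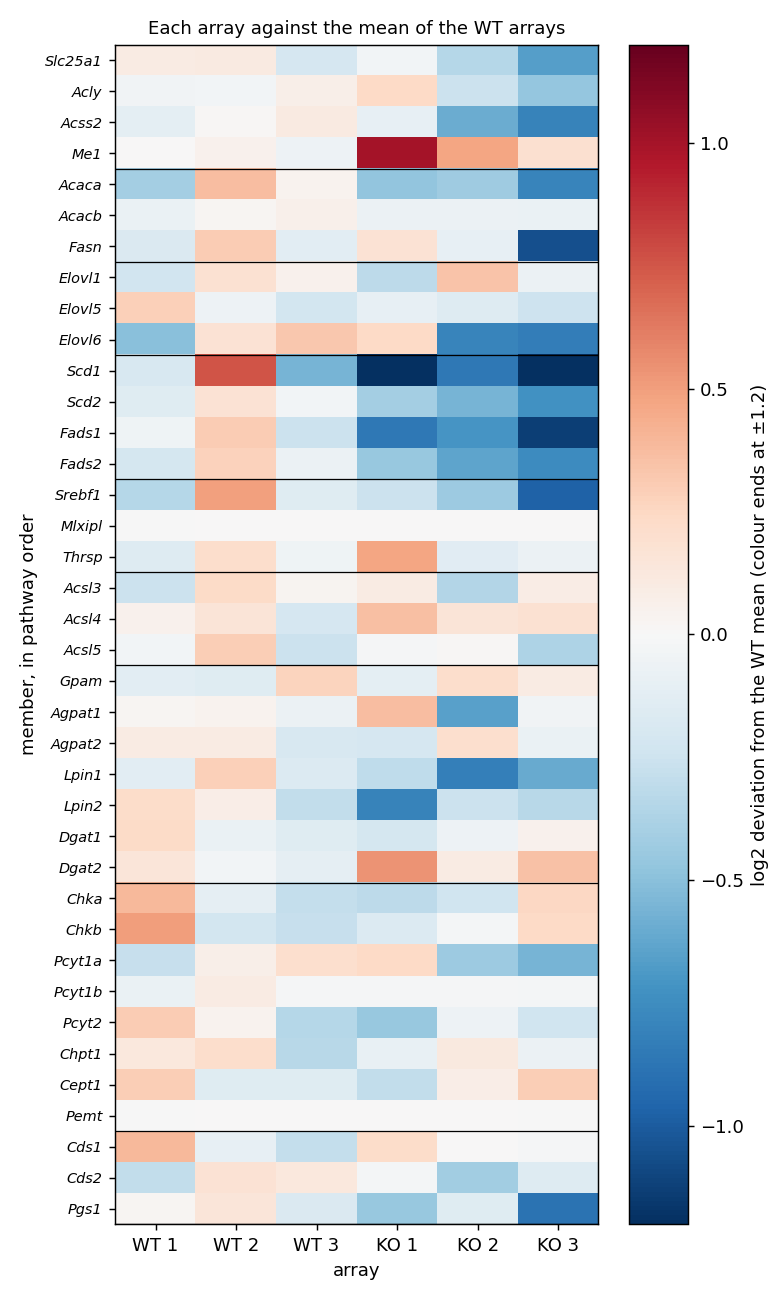
Deviation of each array from the mean of the WT arrays, in log2, for the 38 members in pathway order; blue is below and red above that mean, lines part the pathway steps, and Scd1 runs past the end of the colour scale. The desaturase rows are blue in all KO arrays, KO 3 holds the lowest value of 14 of the 32 bright members, and the choline kinase rows are red in WT 1 and KO 3.

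Across the bright members the lowest value fell in KO 3 for 14 of 32 and in KO 1 for 8. Among all bright genes KO 3 was lowest for 28.5% and KO 1 for 14.2%. The highest value fell in WT 2 for 14 of the 32 and in KO 3 for 0, where WT 2 was highest for 18.7% of bright genes and KO 3 for 15.0%. The median deviation of the bright members from the WT mean was -0.14 in KO 1, -0.20 in KO 2 and -0.29 in KO 3, and WT 3, at -0.15, lay as low as KO 1. The same median over all bright genes was 0.06, -0.04 and -0.09 in the KO arrays and 0.04 in WT 3. For the desaturases the medians were -0.66, -0.67 and -0.94. In the phosphatidylcholine and phosphatidylethanolamine step they were -0.13, -0.02 and -0.01.

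Probe sets of the same gene mostly pointed the same way. The members have 92 probe sets, 64 of them bright, and 47 of the 64 read lower in the KO arrays. Of 19 members with more than 1 bright probe set 16 showed a single sign, and Elovl1, Chka and Chpt1 did not. Probe sets of 1 gene are read on the same arrays and are not independent. The same shares over all genes are not given here, so these counts have no background. In Chka the brightest probe set differed by -0.10 and the others by 0.71 and 0.53, so no direction can be given for it.

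**Figure D4:**
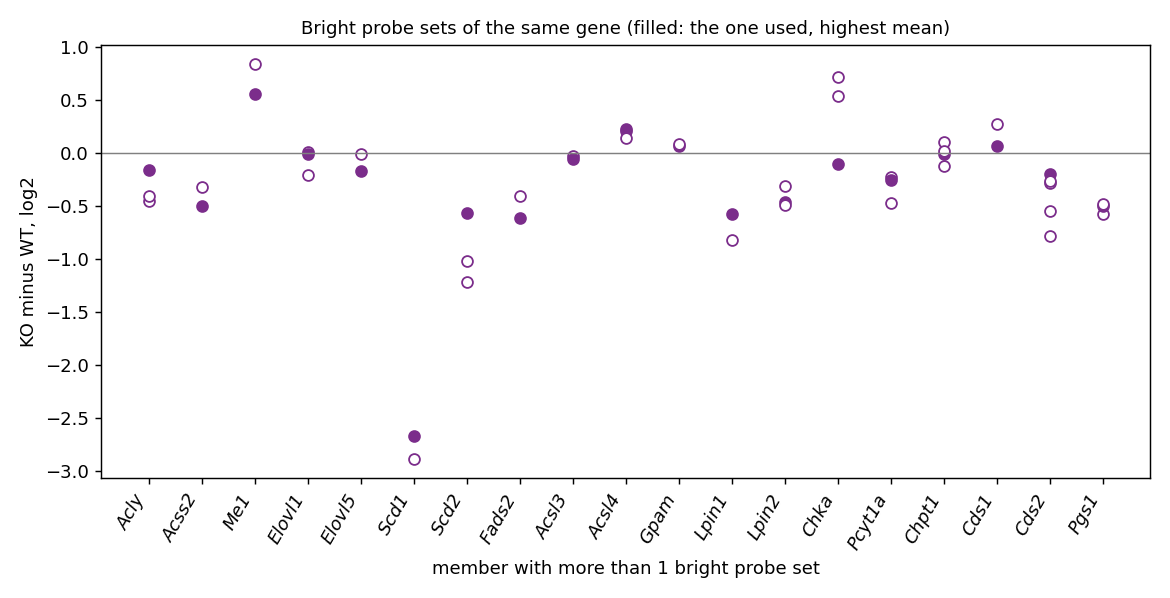
Difference between KO and WT, in log2, for each bright probe set of the 19 members that have more than 1; the filled point is the probe set used. Scd1, Scd2, Fads2, Lpin1, Lpin2 and Pgs1 have every point below 0, Me1 has both above it, and Chka has points on both sides.

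Other genes of the same routes had list medians between -0.11 and 0.01. Of 19 other measured fatty acid synthesis genes 8 read lower (median 0.01), and in none did the groups separate. The 2 with the smallest p were Fads3, a desaturase-like gene, at -0.27 (SE 0.17) and Hacd2, a dehydratase of elongation, at 0.12 (SE 0.09). Of 33 other glycerolipid and phospholipid genes 20 read lower (median -0.02). In that list Mboat1, a lysophospholipid acyltransferase, differed by 1.12 (SE 0.26) and Ctdnep1, a phosphatase that acts on lipins, by -0.51 (SE 0.19), each without overlap. Of 10 genes of NADPH and acetyl-CoA supply 6 read lower (median -0.11), with Mpc1 at -0.33 (SE 0.13) and Pdha1 at 0.15 (SE 0.07). In 2 of the 10, Pdha1 among them, all KO arrays lay above all WT arrays, and in 0 they lay below. Over all genes 5.89% lay above and 3.81% below. None of the genes of these lists passed over all genes in limma. At an unadjusted p under 0.05 the first list held 0, the second 2 lower and 1 higher, and the third 1 lower. Among all 18193 genes 471 were lower and 363 higher.

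Cholesterol synthesis genes, the classic targets of the sister factor SREBP-2, also read lower. Of 15 measured SREBP and LXR regulators 11 read lower (median -0.16). In 4 all KO arrays lay below all WT arrays, and in 1 they lay above. Srebf2 itself differed by -0.96 (SE 0.21), and Insig1, which holds SREBPs in the endoplasmic reticulum, by -1.06 (SE 0.21), each with adjusted p of 0.829 or higher in limma. Of 17 cholesterol synthesis genes 16 read lower with a median of -0.82, and in 10 all KO arrays lay below all WT arrays. Over all genes this held for 3.81%, and the reverse for 5.89%. Among bright genes the shares were 6.27% and 5.28%. The smallest p values in the cholesterol list were those of Fdps (-1.42, SE 0.27) and Fdft1 (-0.82, SE 0.16), the latter at the median of the list. None of these passed in limma either. At an unadjusted p under 0.05 the regulators held 3 lower and 1 higher and the cholesterol genes 11 lower. Among all 18193 genes 471 were lower and 363 higher at that threshold. The difference between these lists and the fatty acid members was not tested.

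The tissue carried lung epithelial markers in every array. In whole lung, fewer cells of a type and less RNA per cell cannot be told apart. Of 11 alveolar type II markers 9 read lower (median -0.28), and their summed intensity ran from 99956 to 134896 in the WT arrays and from 52746 (KO 1) to 140870 (KO 2) in the KO arrays. Scd1 too was lowest in KO 1 and, of the KO arrays, highest in KO 2. The alveolar type I and macrophage sums had this order as well, and the sums of the other cell types did not. Lyz2, by far the brightest macrophage marker, weighs most in the macrophage sum and read 12.42, 14.97 and 14.48 in KO 1 to 3. Csf1r, Adgre1 and Mrc1 were also lowest in KO 1 among the KO arrays. There they read 9.58, 6.95 and 9.42, within their WT ranges, and the other 3 macrophage markers were dim. Not every type II marker had the order of Scd1. Of the KO arrays, Sftpb, Etv5 and Cebpa were lowest in KO 3, and Abca3 and the dim Nkx2-1 were highest in KO 1. The surfactant protein genes differed among themselves: Sftpc by -1.08 (SE 0.79), reading 12.71 in KO 1 and 15.74 in KO 2, Sftpb by -0.08 (SE 0.23), Sftpa1 by 0.74 (SE 0.55) and Sftpd by 0.99 (SE 0.23). Sftpd read higher in all KO arrays than in all WT arrays. Abca3, another type II marker, read lower in all KO arrays than in all WT arrays. It differed by -2.73 (SE 1.34) and read 6.12 in KO 3. Of the 11 markers, 1 separated in each direction, where 3.81% of all genes separated downward and 5.89% upward. All 10 alveolar type I markers read lower (median -1.23), with sums of 105866 to 131971 and 59774 to 106850. Of 7 lipofibroblast markers 5 read lower (median -0.12), with sums of 47677 to 51598 and 33062 to 38501. In that list the fatty acid binding protein gene Fabp5 differed by -1.53 (SE 0.37), while Plin2 (0.03), Tcf21 (-0.03) and Lpl (-0.12) lay near 0. All 7 endothelial markers read lower too, with sums of 7232 to 11419 and 6366 to 7525. Club cell sums were 51583 to 86933 and 71363 to 79151, macrophage sums 13014 to 28716 and 7208 to 34124, and erythroid sums 1726 to 4164 and 1077 to 2217. Their part in the member differences was not tested.

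Fat and liver also make fatty acids. Of 7 measured adipocyte markers 6 were dim in both groups, with Adipoq, Cidea and Ucp1 at the floor. Fabp4, which capillary endothelium also expresses, differed by 1.00 (SE 0.11), and the sums were 541 to 663 and 1154 to 1279. Of 5 hepatocyte markers 4 were dim in both groups, Alb ran from 4.84 in WT 1 to 10.31 in KO 1, and the sums were 44 to 556 and 161 to 1374. Their part in the differences was not tested either.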

How the data were processed

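Each array was deposited as 1 linear intensity per probe set, and per the labels' list of tools GCRMA and MAS5 were involved, with no version or role given, so which of them the authors used for these intensities is not stated. The chip type, fluidics station and scan order were read from the experiment files. Median intensity lay between 20.6 and 24.1 in every array, and no further scaling was applied.

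Of 45101 probe sets, 64 controls, 932 naming several genes and 9160 with no gene name here were left out, and 34945 named 1 gene, 34741 through a current gene ID. Intensities plus 16 were taken to log2 and fitted in limma 3.58.1 (R 4.3.3; lmFit, eBayes with an intensity trend), two-sided, 3 arrays against 3, with Benjamini-Hochberg adjustment over 18193 genes and a threshold of 0.05. Standard errors come from that fit, and standard deviations from 3 arrays. The fit was tested on simulated data. The members, lists, motifs and alternatives were chosen with earlier results of these data known. All measured members are named; values per array are given for those whose groups do not overlap or that differ by more than 0.5, and for some others chosen after their values were seen. From each other gene list the 2 genes with the smallest p are named.

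Arrays of the same number were not taken as pairs: their deviations from the group means correlated at -0.613, 0.0971 and -0.311. A planned comparison of protein sequences was not run, because no protein table was used here.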

Additional observations from a re-analysis of the deposited data

How the results depend on the processing

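No member passed in limma under any of the 17 alternatives, and the lowest adjusted p of any member was 0.225, for Fads1. Of the 38 members 20 kept their sign throughout, all 4 desaturases among them. The median difference was -0.116 with a replicate block too, where 0 genes passed; it ran from -0.061 with the mean of all probe sets to -0.166 with dim genes removed. Of all genes, 0 passed with the covariate, without the trend and after quantile normalisation, 17 after median centring and 32 with the station block; without 1 array it was 0 to 1. The station block raised the members reading higher from 10 to 16. Members with all KO arrays below all WT arrays numbered 6 to 12 without 1 array (12 without KO 1 or without WT 3). Those with all KO arrays above numbered 2 to 5 without 1 array, or 1 with dim genes removed. Fewer arrays separate more easily, and the share of all genes without 1 array is not given here. The cause of the changes below was not tested. After median centring the sign turned for Elovl1 (0.029), Agpat2 (0.014), Pcyt1b (0.026) and Chpt1 (0.028). After quantile normalisation the sign turned for Elovl1 (0.010), Agpat2 (0.002), Chpt1 (0.003) and Pemt (-0.003). With the fluidics station as a block the sign turned for Elovl5 (0.054), Acsl5 (0.135), Gpam (-0.202), Agpat2 (0.162), Dgat1 (0.074), Chka (0.180), Pcyt2 (0.091) and Chpt1 (0.322). With unnamed signal as a covariate the sign turned for Acsl3 (0.004), Chkb (-0.127), Pcyt1b (0.004) and Cept1 (-0.107). From probe sets without a suffix for shared sequence the sign turned for Dgat1 (0.020), Chka (0.714) and Chpt1 (0.016). From the mean of all probe sets the sign turned for Chka (0.382). Leaving out 1 array at a time, the difference spanned -0.581 to 0.035 for Fasn, -0.191 to 0.136 for Elovl1, -0.100 to 0.205 for Thrsp, -0.187 to 0.093 for Acsl3, -0.254 to 0.023 for Acsl5, -0.008 to 0.198 for Gpam, -0.346 to 0.164 for Agpat1 and -0.143 to 0.063 for Agpat2. In the same way it spanned -0.146 to 0.040 for Dgat1, -0.280 to 0.093 for Chka, -0.120 to 0.267 for Chkb, -0.056 to 0.032 for Pcyt1b, -0.181 to 0.093 for Chpt1, -0.110 to 0.185 for Cept1 and -0.075 to 0.263 for Cds1. The depth of an array has no count, and the precision rests on 3 arrays a group.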
